A study of Homo sapiens with 8 samples.

Results

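Oxidative phosphorylation is carried out by 5 enzyme complexes of the inner mitochondrial membrane, and transcripts of their nuclear-encoded subunits were followed here across 8 RNA-seq libraries of the uveal melanoma cell line MEL202. Genes were taken by the start of their name (NDUFA, NDUFB, NDUFC, NDUFS, NDUFV, UQCR, COX4 to COX8, ATP5, and SDHA to SDHD), without pseudogenes, with the highest-mean locus per symbol and a mean of at least 1 rescaled FPKM over the libraries. This gave 79 genes of 10521 named genes tested and 32087 loci in all. Of the 79, 69 encode subunits, with 35 in complex I, 4 in complex II, 6 in complex III, 10 in complex IV and 14 in complex V. The other 10 share only the name: the complex I assembly factors NDUFAF1 to NDUFAF7, and ATP5S, ATP5SL and COX4NB, the last now called EMC8 and known as a subunit of an endoplasmic reticulum membrane complex. NDUFA4 is grouped with complex I by its name, although it is now assigned to complex IV.

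Complexes I and II pass electrons from NADH and succinate to coenzyme Q, complex III passes them on to cytochrome c, and complex IV passes them to oxygen. Complexes I, III and IV pump protons, and complex V, the ATP synthase, uses the proton gradient to make ATP. Some subunits are encoded by mitochondrial DNA and the rest by the nucleus, so both genomes contribute to each complex except complex II, which is nuclear-encoded throughout. In complex I, core subunits carry the flavin and iron-sulfur centres and accessory subunits surround them.

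MEL202 carries a mutation in SF3B1, a splicing factor that recognises intron branch points. All lines derive from it. The knockout line lost the mutant SF3B1 allele, the mutant degron line carries a destabilising domain (DD) on mutant SF3B1, the wildtype degron line carries that domain on wildtype SF3B1, and parental cells carry neither by their label. Each line was grown without and with Shld, a ligand that stabilises the domain, so that withdrawal lowers the tagged protein. Labels give 2 days for the knockout and both degron lines. The column names differ from the labels for the knockout line: they name a DD knock-in at wildtype SF3B1 as well, and 4 days without Shld. They also give 4 days for parental cells without Shld. Each of the 8 groups had 1 library, separate cultures are not stated, and no line is represented by more than 1 stated clone. Each p-value therefore rests on spread between libraries, which in comparisons of lines also holds any Shld response that differs between lines. A property of the clone cannot be told apart from its genotype.

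The libraries had summed values of 762679 to 961994 on the deposited scale, lowest in the wildtype degron line with Shld and highest in parental cells with Shld, and their absolute depth is unknown. For SF3B1 the knockout libraries without and with Shld had 138 and 158 rescaled FPKM, the mutant degron libraries 252 and 248, the wildtype degron libraries 201 and 188, and the parental libraries 240 and 266. Melanocyte markers were present in all libraries (8 of 9 in the table), with summed levels of 6442 and 7185 for the knockout, 9138 and 7561 for the mutant degron, 14210 and 15400 for the wildtype degron and 12930 and 11950 for the parental libraries, while 4 epithelial markers summed to at most 0.423. Of 7 fibroblast markers 4 were in the table, with THY1 at 0 throughout, and they summed to 1.64 and 1.72 for the knockout, 7.99 and 6.36 for the mutant degron, 11.1 and 13.2 for the wildtype degron and 21.0 and 29.9 for the parental libraries. Nearly all of that was LUM, the gene of the matrix protein lumican, which was called lower than in parental cells in each line and fell by 3.29 in the knockout line (limma, adjusted p = 4.16e-06). Of 3 blood markers 2 were in the table and summed to 639.1 to 833.5, nearly all from CD68, a lysosomal protein gene, while PTPRC did not exceed 1.22. The part of these markers in the results below was not tested. Parental cells with Shld stood apart for the genes studied here: 65 of 79 were higher in that library than in parental cells without Shld, and results against parental cells are given without it where that matters.

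The promoters of 65 of the 79 genes were matched in RefSeq windows (GRCh38.p14, 250 bases before to 50 after the start, 300 bases in all). Letters of 3 motif types were searched on both strands, each type counted by itself so that overlaps are possible: GCGCANGCG for nuclear respiratory factor 1, CCGGAAG for ETS factors, the family of GABPA, and AAGATGGC for YY1. The first was held by 21 (32.3%) of the 65 and by 7.52% of all 35116 windows, the second by 18 (27.7%) and 10.3%, and the third by 11 (16.9%) and 2.89%. Any of the 3 was held by 58.5% of the 65 windows and by 18.4% of all windows. The set of all windows was not limited to expressed or coding genes. Whether the contrast is particular to the studied genes was not tested. The 120 bases before the start are shown for 5 genes whose values are described below: ATP5O, ATP5J and NDUFA1, which were lower in the wildtype degron line, SDHA, which was higher there, and UQCRC2, which was called on Shld withdrawal in the knockout line. They were chosen after their values were seen, and capitals mark the motif matches.
ATP5O (RefSeq ATP5PO, chr21:33915805-33915924, minus strand): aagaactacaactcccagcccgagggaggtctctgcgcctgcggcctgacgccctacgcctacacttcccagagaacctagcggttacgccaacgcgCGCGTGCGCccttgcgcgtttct
ATP5J (RefSeq ATP5PF, chr21:25735055-25735174, minus strand): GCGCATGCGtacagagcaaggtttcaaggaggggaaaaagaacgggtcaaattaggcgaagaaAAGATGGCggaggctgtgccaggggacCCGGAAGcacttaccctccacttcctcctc
NDUFA1 (chrX:119871712-119871831, plus strand): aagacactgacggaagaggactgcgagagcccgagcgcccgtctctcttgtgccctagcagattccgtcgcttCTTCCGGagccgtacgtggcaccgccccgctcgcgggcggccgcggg
SDHA (chr5:218200-218319, plus strand): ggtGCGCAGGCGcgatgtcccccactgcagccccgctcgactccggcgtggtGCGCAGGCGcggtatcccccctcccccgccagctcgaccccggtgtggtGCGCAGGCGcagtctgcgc
UQCRC2 (chr16:21953241-21953360, plus strand): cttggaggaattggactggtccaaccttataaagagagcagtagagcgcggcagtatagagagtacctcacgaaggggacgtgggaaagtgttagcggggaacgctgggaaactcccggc
ATP5O and SDHA, which differed from parental cells in opposite directions in the wildtype degron line, both held the first motif, SDHA 3 times. ATP5J held each of the 3. In UQCRC2 none of the 3 sets of letters was in the window shown.

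The genes were expressed at levels that differed widely by role. The median over the 79 was 131.6 and 132.6 rescaled FPKM in the wildtype degron line without and with Shld and 137.5 to 199.3 in the other 6 libraries. Complex IV genes had the highest medians, 350.7 to 806.9, followed by complex V with 274.3 to 551.9. Complex II had 80.88 to 98.55 and the complex I assembly factors 18.1 to 26.75. By mean over the libraries, the highest gene of each complex was NDUFB9 (1173 rescaled FPKM), an accessory subunit of complex I, SDHB (192), the iron-sulfur subunit of complex II, UQCRH (851), the hinge protein of complex III, COX7C (1074), a small structural subunit of complex IV, and ATP5B (806), the catalytic beta subunit of complex V. The lowest were NDUFV3 (46.6), SDHD (66.7), UQCRB (122), COX7A2L (82.8) and ATP5L (78.9). Paralogs known from muscle, lung and testis were low or at 0: COX4I2, COX6A2 and COX7A1 were listed at 0 in every library, COX8C did not exceed 0.845, and NDUFA4L2 did not exceed 1.80. Their ubiquitous counterparts COX4I1, COX6A1, COX7A2 and COX8A averaged 577, 727, 680 and 768. ATP5G1, ATP5G2 and ATP5G3, which encode the same mature c subunit of the ATP synthase ring, averaged 245, 550 and 184. ATP5B, NDUFV2 and UQCRB each had a second, lower locus that was not used.

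**Figure D1:**
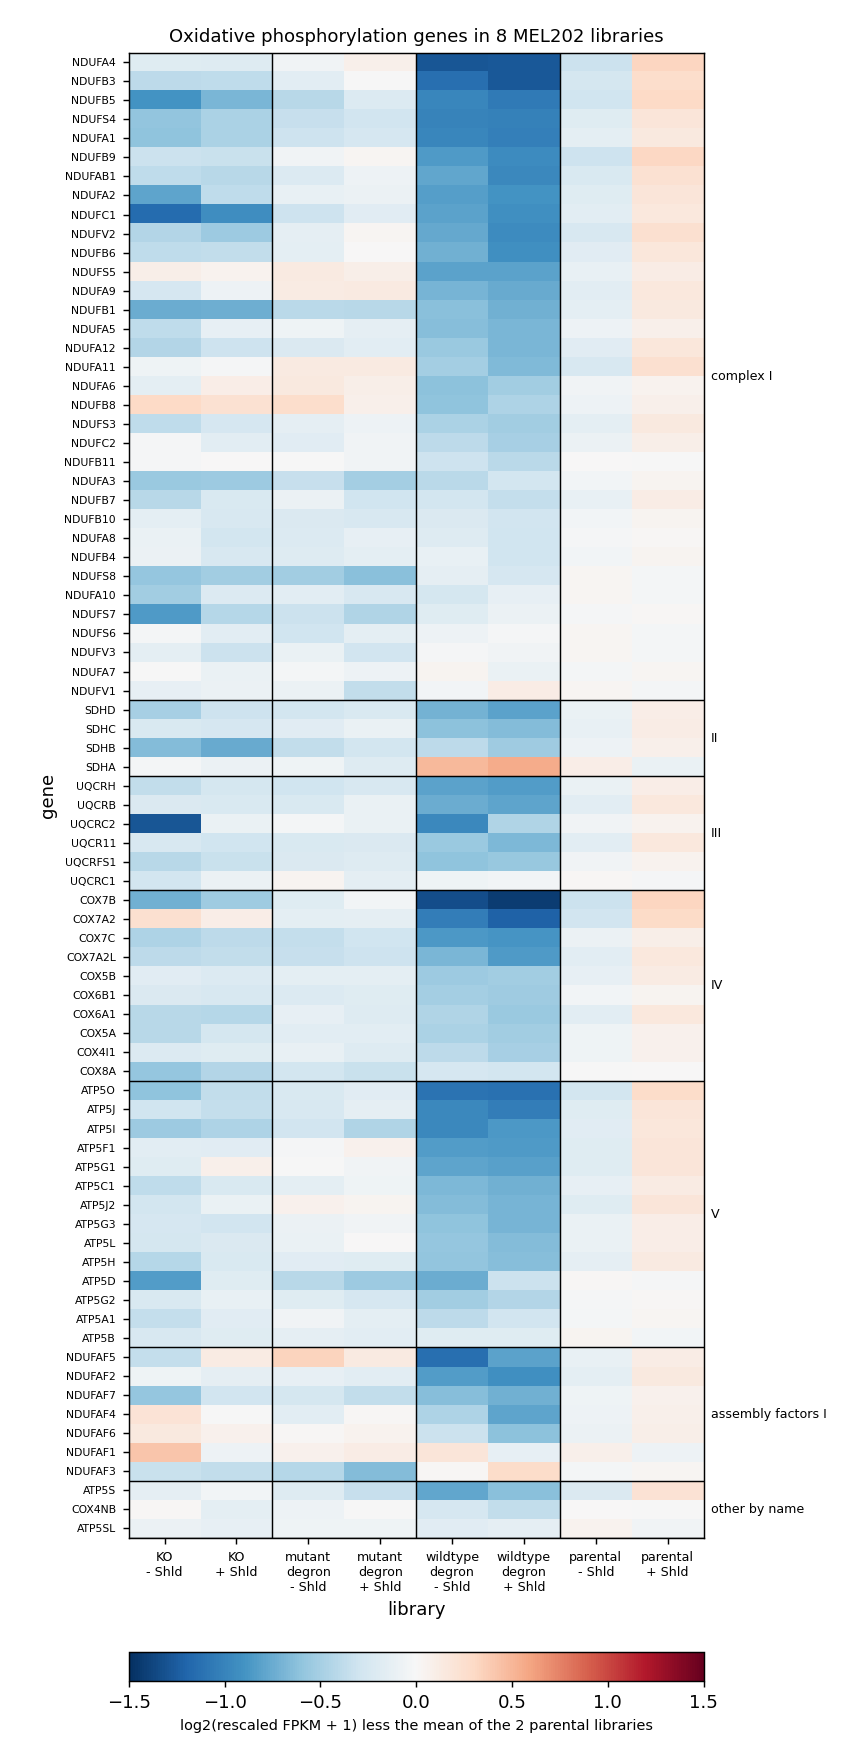
Each row is a gene, with 1 of the 79 not shown, and each column a library; colour gives log2(rescaled FPKM + 1) less the mean of both parental libraries, with genes ordered within each class by their mean difference in the wildtype degron line. The wildtype degron columns are blue for most genes and red for SDHA, and UQCRC2 is darkest in the knockout line without Shld.

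The first question was whether these genes differ between the lines. Lines were compared over both Shld states with limma on log2(rescaled FPKM + 1), with the line and the Shld state as terms, and a gene was called where its Benjamini-Hochberg adjusted p over all 10521 genes was under 0.05. Differences are line less parental on this log2 scale, ± is the standard error, and the comparisons share the 2 parental libraries.

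The wildtype degron line had the lowest levels. Of the 79 genes, 61 were called lower and 1 higher, where 21.7% of all genes tested were called lower and 21.1% higher. The median difference was -0.61 over the 79 genes, against 0.00 over all genes. In 54 of 79 genes both wildtype degron libraries lay below all 6 others, as they did for 21.8% of all genes, and in 1 gene both lay above all 6, as in 22.5% of all genes. The 79 genes took 2.07% and 2.04% of the summed values in this line without and with Shld, and 2.38% to 2.79% in the other libraries.

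Complex IV held the largest fall. COX7B, a small subunit of cytochrome c oxidase, stood at 327 and 305 rescaled FPKM in the wildtype degron line without and with Shld, against 657 and 1029 in parental cells. The knockout libraries had 497 and 569 and the mutant degron libraries 726 and 799. Both wildtype degron libraries were lowest, and the 2 parental libraries were themselves far apart. The difference was -1.38 ± 0.16 (limma, adjusted p = 0.000907). COX7A2 fell by 1.12 ± 0.17 (limma, adjusted p = 0.00166), to 378 and 333 against 636 and 944 in parental cells. In all, 9 of 10 complex IV genes were lower, with a median of -0.53, and COX8A had -0.27 with an adjusted p of 0.0542 in limma.

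In complex I, 24 of 35 genes were lower, with a median of -0.57. NDUFA4 had 140 and 142 rescaled FPKM in the wildtype degron line, against 274 and 429 in parental cells, a difference of -1.28 ± 0.15 (limma, adjusted p = 0.000945). NDUFB3, an accessory subunit of the membrane arm, had 67.1 and 60.6, against 123 and 178 in parental cells, a difference of -1.20 ± 0.14 (limma, adjusted p = 0.000958). In each of these genes the wildtype degron libraries did not overlap with any other. NDUFB5, NDUFS4 and NDUFA1, also accessory subunits, were lower too. NDUFB5 fell by 1.02, NDUFS4 fell by 1.01 and NDUFA1 by 1.00. The 29 accessory subunits had a median of -0.62 with 22 lower, while the 6 core subunits had a median of -0.16 with 2 lower, NDUFV2 (-0.86) and NDUFS3 (-0.49). NDUFV1, the core subunit that binds NADH, had +0.04 and did not pass the threshold. The difference between core and accessory subunits was not tested. Median transcript length was 998.5 bases for the core and 801 bases for the accessory subunits.

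Complex II had genes on both sides. SDHA, the flavoprotein subunit of succinate dehydrogenase, had 118 and 124 rescaled FPKM in the wildtype degron line without and with Shld, against 90.8 and 78.5 in parental cells. The knockout libraries had 82.5 and 79.2 and the mutant degron libraries 81.0 and 74.0, so both wildtype degron libraries lay above all 6 others. The rise was 0.52 ± 0.09 (limma, adjusted p = 0.00321). SDHA was the sole gene of the 79 called higher against parental cells in any line. Its sequence is shared in part with the pseudogene SDHAP1 and others, so its value may hold their reads. The other 3 genes of the complex fell there: SDHD, a membrane anchor, by 0.75, SDHC, the other anchor, by 0.63, and SDHB by 0.46.

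In complex III 5 of 6 genes were lower, with a median of -0.66. The 5 included UQCRC2 (-0.71), whose call held in 8 of the 20 alternatives computed. That call was lost under both length corrections given below and without parental cells with Shld. UQCRH fell by 0.82 and UQCRB, a small subunit of the complex, by 0.77. UQCRC1, a core protein, had 159 and 161 rescaled FPKM, against 168 and 163 in parental cells, and was not called. In complex V 13 of 14 genes were lower, with a median of -0.66. ATP5O, which encodes the stalk subunit OSCP, had 281 and 281 rescaled FPKM in the wildtype degron line, against 504 and 735 in parental cells, and fell by 1.11 ± 0.13 (limma, adjusted p = 0.000949). ATP5J, coupling factor 6 of the peripheral stalk, fell by 1.00 and ATP5I by 0.92. ATP5B had -0.18 with an adjusted p of 0.154 in limma. The c subunit genes ATP5G1, ATP5G3 and ATP5G2 fell by 0.80, 0.65 and 0.48. Among the assembly factors NDUFAF5 and NDUFAF2 fell by 0.97 and 0.88 and 5 of 7 were lower in all, while NDUFAF1 and NDUFAF3 had +0.03 and +0.14. ATP5S and COX4NB, of the 3 others, were lower.

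**Figure D2:**
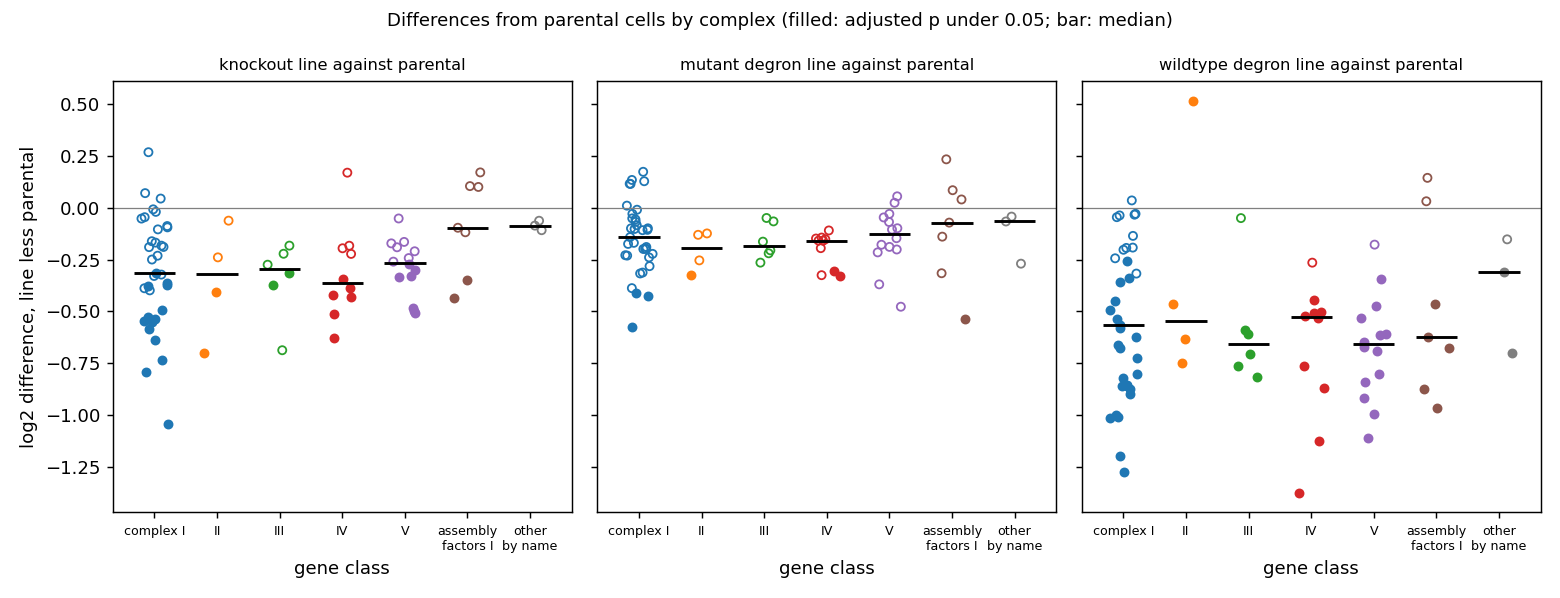
Each point is a gene, placed by class, with its log2 difference from parental cells in the knockout, mutant degron and wildtype degron lines; filled points had an adjusted p under 0.05 and the bar is the class median. Class medians of complexes I to V lie between -0.66 and -0.53 in the wildtype degron line, and 1 complex II point, SDHA, lies above 0 at 0.52.

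Transcript length moved with this result. Over 10222 genes with a length, the difference between the wildtype degron line and parental cells had a Pearson correlation of 0.414 with log2 transcript length (principal transcripts of GENCODE v29), where all points come from the same 4 libraries. The studied genes are short, with a median of 963 bases against 2977 over all genes, and with all genes in 10 groups by length 46 of the 79 were in the shortest group. That group had a median difference of -0.35 and the longest group +0.34. Up to 600 bases, 8 of 10 studied genes were lower with a median of -0.63, against 57.8% of all genes of that length and a median of -0.50. Between 600 and 900 bases 21 of 25 were lower with a median of -0.62, against 51.8% and -0.38. Above 900 bases 32 of 44 were lower with a median of -0.58, against 20% and +0.02. This last bin has no upper limit, so its all-gene values include the longest groups and are not matched for length. The groups next to the shortest held 8, 9 and 5 of the 79 and had all-gene medians of -0.17, -0.09 and -0.06. Within the 79 genes the correlation with length was 0.14. The length limits were set after the data were seen.

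After a correction for length in each library, fewer genes were lower, and how many depended on how length was defined. With the median over all annotated coding transcripts, the definition used first, 54 were lower and 1 higher, with a median of -0.46, where 19.3% of all genes were lower and 20.8% higher. With principal transcripts, adopted after that fit had been seen because some of the first lengths came from fragments, 40 were lower and 3 higher, with a median of -0.27, where 18.8% of all genes were lower and 20.1% higher. In 30 of the 62 called genes the call held in all 20 alternatives computed, among them COX7B, NDUFA4, NDUFB3, COX7A2, ATP5O, ATP5J, NDUFA1, NDUFS4, SDHD, UQCRH and UQCRFS1. COX7B lay between -1.66 and -0.90 over these alternatives. The part of length, RNA quality or library preparation in the differences was not tested. For the fits with a library left out, given next, no share of all genes stands beside the counts. Leaving out parental cells with Shld gave a median of -0.50, and 48 of the 62 calls held. Without the wildtype degron library with Shld 40 genes were called, all lower. Within libraries without Shld the median against parental cells was -0.49, and within libraries with Shld it was -0.76.

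**Figure D3:**
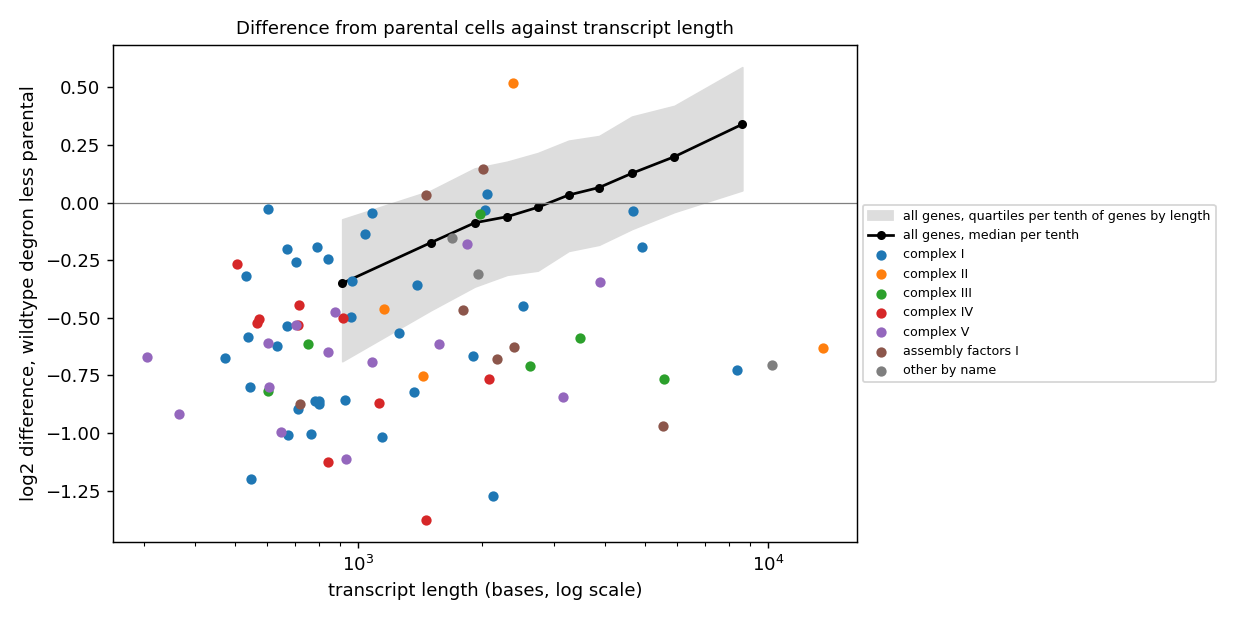
Points are the 79 genes, by transcript length in bases on a log scale and by log2 difference of the wildtype degron line less parental cells; the black line and grey band give the median and quartiles of all genes in 10 groups by length. The all-gene median is -0.35 in the shortest group and 0.34 in the longest, and most points within the span of the line lie below it, with SDHA above it.

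The wildtype degron line was also lower than the other engineered lines. Against the mutant degron line 54 of the 79 genes were lower and 3 higher, with 24.2% of all genes lower and 27.0% higher, and a median of -0.43. NDUFA4 had the largest difference, -1.29 ± 0.15 (limma, adjusted p = 0.000327), and NDUFAF3, SDHA and NDUFS8 were higher by 0.68, 0.64 and 0.38. In the knockout line against the wildtype degron line, 41 genes were higher and 4 lower, with 24.8% and 25.5% of all genes, and a median of 0.34. COX7A2 was higher by 1.29, and SDHA, NDUFS7, NDUFAF3 and NDUFS8 were lower by 0.58, 0.50, 0.49 and 0.35. Both counts depended on the wildtype degron library with Shld: without it 31 genes were lower and 3 higher against the mutant degron line, and 14 were higher and 1 lower in the knockout line against the wildtype degron line. Over all genes the correlation of length with the difference was 0.15 for the wildtype degron against the mutant degron line and -0.0629 for the knockout against the wildtype degron line.

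The knockout line was lower than parental cells in fewer genes. Here 33 of 79 genes were lower and 0 higher, where 21.5% of all genes were lower and 18.1% higher. The median was -0.26, against -0.03 over all genes. Both knockout libraries lay below both parental libraries in 56 of the 79 genes, as in 36.2% of all genes. Called genes numbered 14 in complex I, 2 in complex II, 2 in complex III, 6 in complex IV, 7 in complex V and 2 among assembly factors.

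NDUFC1, an accessory subunit of the membrane arm of complex I, had the largest fall. It had 53.4 and 62.5 rescaled FPKM in the knockout line without and with Shld, against 107 and 135 in parental cells, while the mutant degron libraries had 96.7 and 107 and the wildtype degron libraries 68.4 and 63.4. The difference was -1.05 ± 0.11 (limma, adjusted p = 0.00019), and the groups did not overlap. SDHB had 156 and 144, against 231 and 258 in parental cells, and fell by 0.70 ± 0.10 (limma, adjusted p = 0.00101). Both knockout libraries were below all others for SDHB. NDUFB5 fell by 0.79, NDUFB1 by 0.74, NDUFS7 by 0.64, COX7B by 0.63 and COX8A by 0.51. NDUFS7 and NDUFS8, core subunits that carry iron-sulfur clusters in the peripheral arm, fell by 0.64 and 0.55. In all, 4 of 6 core subunits were lower with a median of -0.40. In the knockout line the accessory subunits had a median of -0.25 with 10 of 29 lower. COX7A2 and NDUFB8, which fell in the wildtype degron line, had +0.17 and +0.27 here and did not pass the threshold.

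The knockout result rests partly on single libraries. Shares of all genes called are not given for fits with a library left out, so the counts from such fits cannot be set against them. Without parental cells with Shld 13 genes were called, 12 lower and 1 higher, with a median of -0.18, and without the knockout library without Shld 12 were called. Without the knockout library with Shld 18 were called. Length had a correlation of 0.244 with the knockout difference over all genes. With the first length definition 20 were lower and 1 higher, where 20.2% of all genes were lower and 19.1% higher. With principal transcripts 20 were lower and 3 higher, where 19.9% of all genes were lower and 19.2% higher. Under both definitions the count of lower genes was nearer to the share of all genes than without a length correction. The calls of NDUFA1, NDUFB1, NDUFB5, NDUFC1, NDUFS4, NDUFS7, NDUFS8, SDHB and UQCRFS1, the Rieske iron-sulfur protein of complex III, held in all 20 alternatives.

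The mutant degron line differed least from parental cells. Of the 79 genes 7 were lower and 0 higher, where 14.1% of all genes were lower and 11.7% higher, so the share lower was below that of all genes. The median was -0.15, against -0.04 over all genes. NDUFS8 fell by 0.58 ± 0.09 (limma, adjusted p = 0.00221), at 83.0 and 77.3 rescaled FPKM in the mutant degron line without and with Shld against 122 and 118 in parental cells. The knockout libraries had 80.2 and 83.6 and the wildtype degron libraries 109 and 101, so the mutant degron and knockout libraries lay below the rest. NDUFAF3, NDUFA3, NDUFB1, COX7C, SDHB and COX8A fell by 0.54, 0.43, 0.41, 0.33, 0.32 and 0.30. Only the NDUFS8 call held in all 20 alternatives, and without parental cells with Shld it was the sole call. Without the mutant degron library with Shld 1 gene was called, without that line's other library or either wildtype degron library 4 were, and without parental cells without Shld 15 were, all lower. These counts with a library left out have no share of all genes beside them. Length had a correlation of 0.222 with the mutant degron difference over all genes. With principal transcripts the length correction turned the median to +0.02, with 3 genes lower and 4 higher, where 12.2% of all genes were lower and 12.9% higher. With the first definition it was -0.06, with 4 lower and 0 higher, where 12.6% of all genes were lower and 13.1% higher.

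Between the knockout and the mutant degron line 3 of 79 genes were called, all lower, where 7.42% of all genes were lower and 6.26% higher. NDUFC1 was lower by 0.81 ± 0.11 (limma, adjusted p = 0.00247), NDUFA2 by 0.49 and SDHB by 0.37. The count was 1 without the knockout library without Shld or either mutant degron library, and 9 without either parental library.

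**Figure D4:**
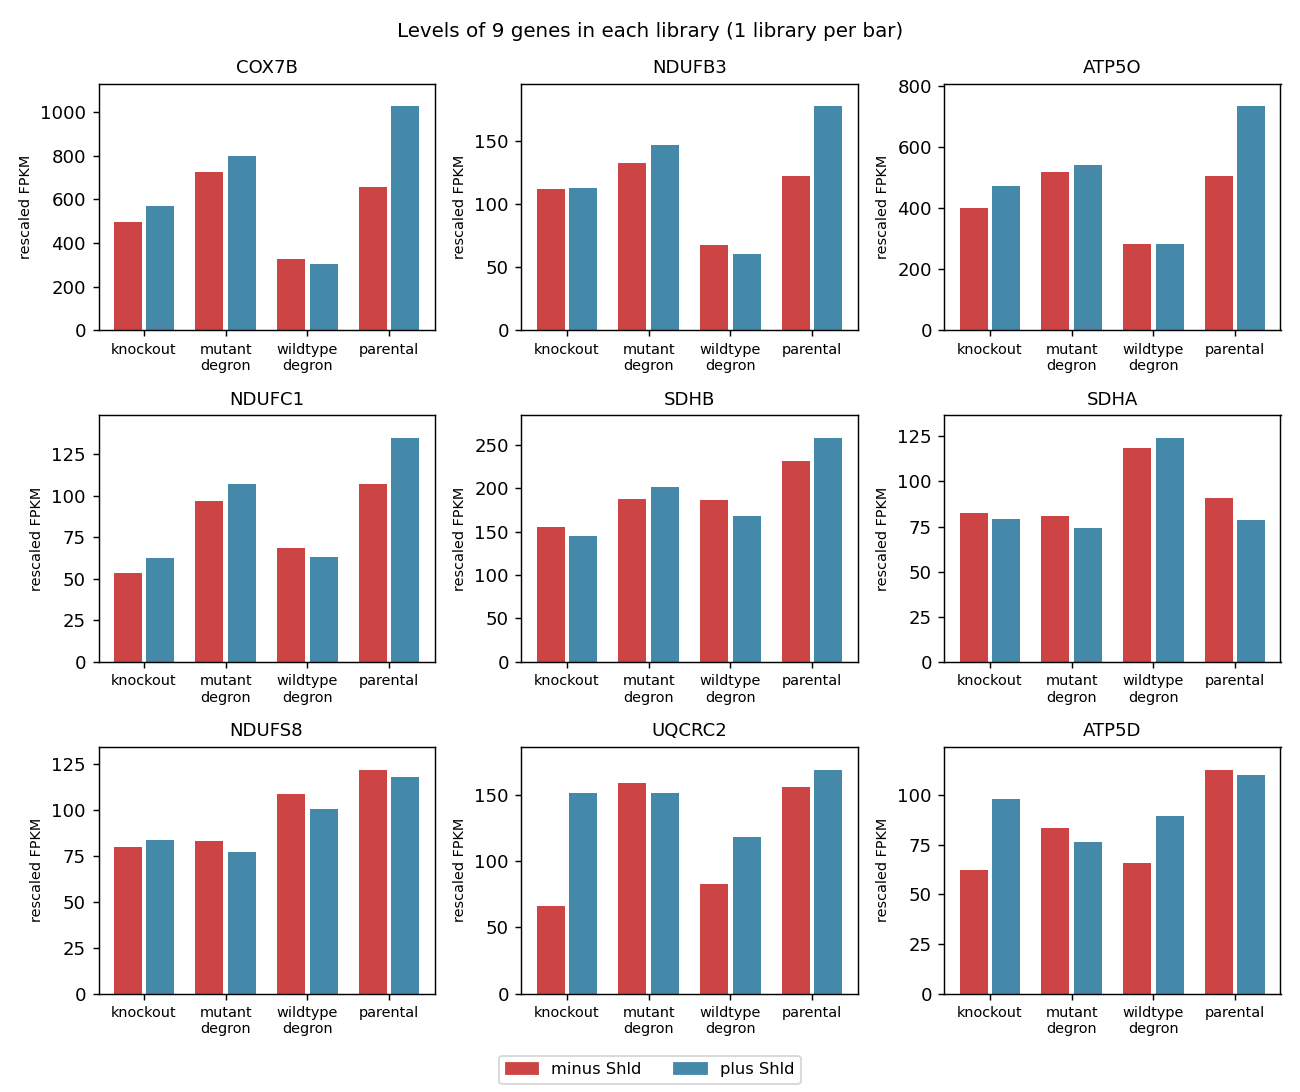
Bars give rescaled FPKM in each library, red without and blue with Shld, 1 library per bar and each axis starting at 0. COX7B, NDUFB3 and ATP5O are lowest in the wildtype degron line, SDHA is highest there, NDUFC1 and SDHB are lowest in the knockout line, and UQCRC2 is lowest in the knockout line without Shld at 66.4.

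The second question was whether these genes respond to Shld withdrawal. A change shared by the 4 lines was not called in any of the 79 genes or in any of the 10521 genes tested (limma with the line as a term). At an unadjusted p under 0.05 there were 3 of the 79: UQCRC2, NDUFB5 and NDUFAF1. No share of all genes at that p stands beside this count, so it is not read as a response. For single lines each state had 1 library, so the spread was taken from the parental pair. That pair differed in Shld state, with a median change of -0.19 over the 79 genes and +0.02 over all genes. The shift enters the error for the 79 genes, so a gene not called may still have changed. The test assumes that lone libraries vary as the parental ones do. In that test 1 of the 79 genes was called in the knockout line, where 0.323% of all genes were called lower and 0.209% higher. In the wildtype degron line 0 of 79 and 0.0380% of all genes were called. In the mutant degron line 0 of 79 and 0.0570% of all genes were called. Counts at an unadjusted p are left out for single lines, as no share of all genes stands beside them.

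UQCRC2 encodes a core protein of complex III. It had 66.4 rescaled FPKM without Shld in the knockout line, against 152 with Shld. It had 159 without and 152 with Shld in the mutant degron line, 83.0 without and 118 with Shld in the wildtype degron line, and 156 without and 169 with Shld in parental cells. The knockout library without Shld was the lowest of all, and the wildtype degron library without Shld the next. The change was -1.18 ± 0.18 in the knockout line (limma, adjusted p = 0.0188), -0.51 ± 0.18 in the wildtype degron line (limma, adjusted p = 0.90) and +0.07 in the mutant degron line. The knockout columns name a wildtype degron, which that line's labels do not. Whether this has a part in its low UQCRC2 value was not tested. No difference in withdrawal between lines was called for any of the 79 genes, where 0.133%, 0.0570% and 0.0475% of all genes were called for knockout less mutant degron, knockout less wildtype degron and wildtype degron less mutant degron. The UQCRC2 call was lost, at an adjusted p of 0.299 without a level filter, 0.0819 with median scaling, 0.0542 with the first length definition and 0.495 over all loci, with changes of -1.18 to -1.15 on the log2 scale. It was kept with principal transcripts (adjusted p = 0.000676 in limma), and these 0.000676 and 0.495 are the ends of the range over its alternatives.

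ATP5D, the delta subunit of the ATP synthase, was picked after its values were seen. It had 62.2 rescaled FPKM without and 98.2 with Shld in the knockout line, 66.1 without and 89.4 with Shld in the wildtype degron line, 83.6 without and 76.3 with Shld in the mutant degron line, and 113 without and 110 with Shld in parental cells. Its changes were -0.65 (limma, adjusted p = 0.113) in the knockout line and -0.43 in the wildtype degron line, and neither passed the threshold. The other 77 genes moved by -0.47 to 0.49 in the knockout line, where the median over the 79 was -0.03. The mutant degron line had a median of -0.01 and the wildtype degron line of +0.05. Parental cells, which carry no degron by their label, had the lowest median, -0.19.

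**Figure D5:**
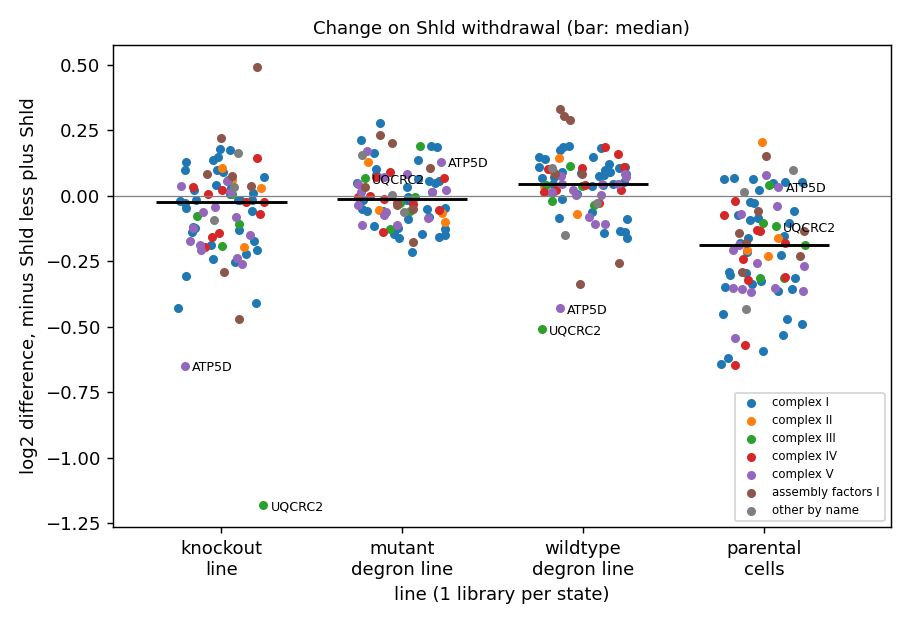
Each point is a gene, coloured by class, with its log2 difference without less with Shld in the knockout line, mutant degron line, wildtype degron line and parental cells; the bar is the median of 79 genes. UQCRC2 stands apart at -1.18 in the knockout line and is lowest at -0.51 in the wildtype degron line, while parental cells have the lowest median, -0.19.

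Genes that act with the complexes were followed from lists made with earlier results known. Of the 13 complex IV assembly factors tested, the wildtype degron line had 8 lower, the knockout line 7 and the mutant degron line 2, with 0 higher, where 21.7%, 21.5% and 14.1% of all genes were lower in these lines, so the mutant degron count was near the share of all genes. PET100 fell by 1.15 ± 0.12 (limma, adjusted p = 0.000786) in the wildtype degron line, and SURF1 by 0.77 in the knockout line. Of 14 assembly factors for other complexes 5, 3 and 1 were lower in the wildtype degron, knockout and mutant degron lines, so the knockout count was near its share of all genes and the mutant degron count below it. TMEM126B, a complex I assembly factor, fell by 1.35 in the wildtype degron line. A further list held CYC1 of complex III, cytochrome c (CYCS), the ATP synthase inhibitor gene ATPIF1, C14orf2 and COX11, the last also counted among the complex IV assembly factors. Of these 5 genes 4 were lower in the wildtype degron line, with CYCS at -0.88. CYCS fell by 0.38 in the knockout line.

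The 15 genes of the tricarboxylic acid cycle and pyruvate dehydrogenase were mixed, and several counts were near or below the shares of all genes, which were 21.7% lower and 21.1% higher for the wildtype degron line, 21.5% and 18.1% for the knockout, and 14.1% and 11.7% for the mutant degron line. In the wildtype degron line 6 were lower and 2 higher with a median of -0.09; SUCLG1, of succinyl-CoA ligase, fell by 0.77, while OGDH, of the oxoglutarate dehydrogenase complex, rose by 0.56. In the knockout line 4 were lower and 1 higher, and OGDH fell by 0.88. In the mutant degron line 3 were lower and 0 higher, and OGDH fell by 0.62. Among 11 regulators of mitochondrial biogenesis 4 were lower and 3 higher in the wildtype degron line. TFAM, the mitochondrial transcription factor, fell there by 0.41 and TFB2M by 0.56. Other genes of this list went the other way. POLRMT had 35.5 and 31.5 rescaled FPKM in that line without and with Shld, against 24.4 and 25.4 in parental cells. C10orf2 had 24.2 and 23.6, against 17.3 and 15.3. In the knockout line 1 of the 11 was lower and 4 higher: the coactivator gene PPARGC1B fell by 0.97, while GABPA, of the ETS family, rose by 0.33. In the mutant degron line 0 of 11 were called. Mitochondrially encoded subunits were not analysed here.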

How the data were processed

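Per the labels' protocols, TruSeq libraries were read on a HiSeq instrument in pairs of 100 bases. TopHat, Cufflinks and the hg19 build are named per the submitters' processing notes. Versions, annotation and strand use are not stated there. The deposited table holds FPKM-type values, rescaled per library to a 75th percentile of 10, with 32087 loci and 8 columns. That FPKM was the input is inferred from the tool and the values. Columns were matched to samples by name.

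After small RNAs and all but 1 locus per symbol were left out, genes averaging at least 1 entered limma 3.58.1 in R 4.3.3 on log2(rescaled FPKM + 1), with empirical Bayes moderation, a trend and Benjamini-Hochberg adjustment at 0.05 over 10521 genes. A pseudocount of 1 understates the changes of low genes. The fit of lines had 3 residual degrees of freedom. The fit of withdrawal had 1, from the parental pair. The pairing of libraries by replicate number was not used. On simulated data the comparison of the wildtype degron line with parental cells recovered 98.5% of genes changed by 1 on the log2 scale. It recovered 39.5% of those changed by 0.5. Withdrawal in the knockout line recovered 63% and 2.5%, over 10521 genes each. False calls made up 3.83% and 7.09% of all calls in these comparisons. Gene spreads were set rather than taken from these data, and 200 genes were changed by each amount. The simulated parental pair had no Shld shift, while the real pair had a median of -0.19 over the studied genes. The rates may therefore not hold for those genes.

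Alternatives changed the pseudocount, level filter, scaling, model terms and loci used, corrected for transcript length, and left out each library. Lengths came from GENCODE v29. They were first medians over all coding transcripts. After that corrected fit was seen, principal and basic transcripts were added, and so was a correction for length and level. No depth is known, so no counting interval is given. The genes, lists and alternatives were chosen with earlier results of these data known. Named genes included those past the threshold with the largest differences, the extremes of each complex, isoform pairs, UQCRC2 and SF3B1. Others fell outside these criteria, among them ATP5D, NDUFAF1, NDUFAF3 and genes of the further lists. Annotated subunits that did not match a row were not analysed here. The values of 1 gene are not reported singly here. Promoters came from RefSeq on GRCh38.p14, so no hg19 coordinates are given. The nuclear respiratory factor 1 letters were shortened by 1 base after shares for a longer form had been seen.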

Additional observations from a re-analysis of the deposited data

How the results depend on the processing

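Pairing by replicate number was not possible, because all libraries share 1 such number. In comparisons of lines, libraries were matched by Shld state through the model, which had the line and the Shld state as terms. The fit of withdrawal in single lines had no such terms. Counts with a library left out are given here without the share of all genes in the same fit. The count of called genes in the wildtype degron line against parental cells (62) was 40 to 62 with a library left out, and its median (-0.61) -0.72 to -0.50. The knockout line (33, median -0.26) gave 12 to 40 and -0.35 to -0.18, the mutant degron line (7, median -0.15) 1 to 15 and -0.25 to -0.06. Knockout against mutant degron (3) gave 1 to 9, knockout against wildtype degron (45) 15 to 51, and wildtype degron against mutant degron (57) 34 to 58. The low ends came without the wildtype degron library with Shld for the 3 comparisons of that line, without the knockout library without Shld for the knockout line against parental cells, and without the mutant degron library with Shld or parental cells with Shld for the mutant degron line against parental cells. Without a level filter the counts were 15 for the knockout line, 3 for the mutant degron line and 1 for knockout against mutant degron. Knockout against mutant degron also gave 1 over all loci. Quantile normalization gave 4 for the mutant degron line and a median of -0.14 for the knockout line. Withdrawal in the knockout line gave 0 calls without a level filter, with median scaling, with the first length definition and over all loci. The difference in withdrawal, knockout less mutant degron, gave 1 call with a mean of at least 5 and with principal transcripts.

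With the first length definition (all coding transcripts) the counts were 21 for the knockout line, 4 for the mutant degron line, 55 for the wildtype degron line and 5 for knockout against mutant degron, which also had 5 under the other length corrections. With principal transcripts the medians were -0.10 for the knockout line, 0.0207 for the mutant degron line, which reversed, and -0.27 for the wildtype degron line. With basic transcripts they were -0.0885, 0.0184, also reversed, and -0.22, with 15 called in the knockout line. With length and level corrected together they were -0.13, 0.00025, reversed, and -0.23, with 41 called in the wildtype degron line. Single genes that reversed in the wildtype degron line were ATP5J2 (0.0334 principal, 0.011 basic, +0.15 length and level), NDUFB10 (+0.19, +0.17, +0.17), COX6A1 (0.00877 principal, 0.0899 length and level), NDUFA3 (0.00945 principal, +0.26 basic), NDUFC2 (0.0525 basic), NDUFS8 (+0.30 basic), COX4I1 (0.049 length and level) and COX6B1 (0.0297 length and level). The cause was not tested. Leaving out a parental library for withdrawal in single lines was not run, as no residual degree of freedom is left.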
